A study of Mus musculus with 40 samples.

Results

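The liver of mice with a resected small bowel was compared with that of sham-operated mice. The comparison uses 13 of the 40 RNA sequencing libraries of the series, chosen by their titles: 8 liver libraries of the SBR vehicle group and 5 of the sham vehicle group. All mice were wild-type C57BL/6 males, 8 weeks old at surgery. SBR mice underwent small bowel resection, which the labels give as 50 to 60% of the bowel and the study's text as a larger share of the proximal small intestine. In sham mice the bowel was cut and joined again without removal of any segment. From 3 weeks after surgery, both groups received vehicle once a day for 7 weeks, so the livers were taken about 10 weeks after surgery. A further 5 liver libraries came from SBR mice given WUSTL0717, a liver X receptor agonist, at 30 mg/kg, and they enter here through the filter on low genes, the estimate of the spread and the check for pancreatic transcripts. The labels number the libraries of a group as separate replicates, and p-values measure the spread between these libraries. All 18 liver libraries carry the same batch label.

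Loss of a long stretch of bowel leaves the liver with an altered supply of nutrients, bile acids and microbial products through the portal vein, and liver injury with fibrosis is a known complication of short bowel syndrome. In fibrosis, hepatic stellate cells become myofibroblasts that lay down collagen under signals such as transforming growth factor-β and platelet-derived growth factor, while bile duct cells proliferate and macrophages gather. Hepatocytes carry out the metabolic work of the organ, and in male mice many of their genes follow the pulsed secretion of growth hormone.

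The deposited values are log2 TPM (an abundance per transcript length, scaled to the same total in every library) after correction for batch. Of 15958 genes, 15901 had a mean of at least 1 over the 18 liver libraries and were tested with limma. Of these, 320 had a mean under 1 in sham and 32 in SBR. They passed the filter through other liver groups, so a call for them follows in part from the filter. Adjusted p-values are limma's with Benjamini-Hochberg adjustment, a gene was called at an adjusted p under 0.05, and a difference is always SBR minus sham on the log2 scale. The number of reads behind a value is unknown, since the table holds TPM alone. All intestinal libraries form the other batch, so the correction can align gene means between the tissues. Levels of different genes were therefore not compared, and a difference is one between corrected values. In bulk tissue, more cells of a type and more RNA per cell cannot be told apart.

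A large part of the transcriptome differed. In the limma test, 6663 of 15901 genes were called (41.9%), of which 5953 were higher (37.4% of all genes tested) and 710 lower (4.47%). The 2 groups did not overlap at all for 2738 genes (17.2%), 2480 that were higher in every SBR library (15.6%) and 258 that were lower in every SBR library (1.62%). With a change of at least 2-fold as a further condition, 1200 genes were called (7.55%), 1071 of them higher (6.74%) and 129 lower (0.811%). An unadjusted p under 0.05 was reached by 7979 genes (50.2%), and 1204 of these (7.57%) changed at least 2-fold. Library medians lay between 3.06 and 3.37 in sham and between 3.14 and 3.78 in SBR, and the median difference over all genes was 0.25. Centring each library on its own median shifted every difference down by about 0.31, to a median of -0.06. On centred values 7825 genes were called (49.2%), with 3245 higher (20.4%) and 4580 lower (28.8%), and the groups did not overlap for 4429 genes (27.9%), 1983 higher (12.5%) and 2446 lower (15.4%). The share of calls that were higher was thus 89.3% with the deposited values and 41.5% after centring. Under both scalings, 3245 genes were called higher and 710 lower. Which scaling is closer to the RNA content of the cells was not tested. Both are given for the gene lists. Counts of members called higher or lower are to be read against the shares of all genes given above. All 165 called genes that were examined singly and are reported here were called in the same direction on centred values.

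**Figure D1:**
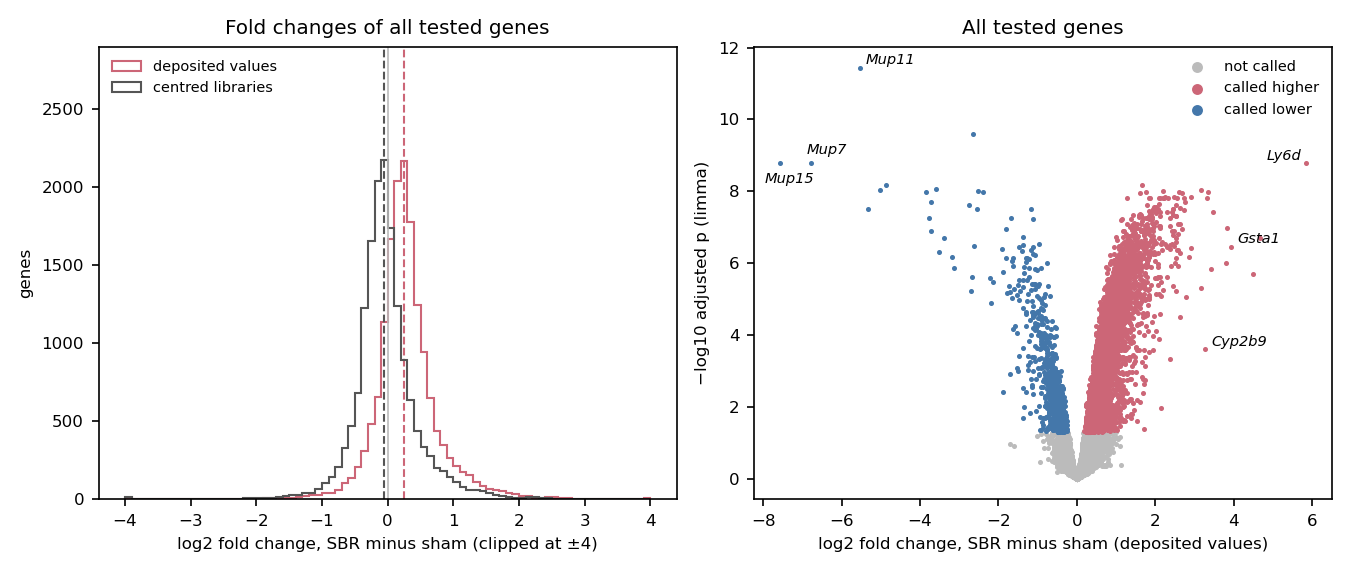
Log2 fold change (SBR minus sham) of all tested genes, as a histogram with the deposited values and with centred libraries (dashed lines: medians, 0.25 and -0.06; values beyond 4 drawn at the edge), and against −log10 of the limma adjusted p. Called genes numbered 5953 higher and 710 lower with the deposited values, and the most negative differences belong to *Mup* genes.

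Libraries of the same group resembled each other more than those of the other group. Correlations across genes lay between 0.975 and 0.982 within sham, between 0.964 and 0.982 within SBR, and between 0.922 and 0.949 between the groups (genes are not independent replicates). SBR vehicle library 2 had the lowest median of its group, 3.14, and leaving it out raised the number of called genes to 9010. SBR vehicle library 7 held pancreatic transcripts. All 23 listed acinar genes were above the other 17 liver libraries there, 20 of them by more than 2 log2 units, and *Ctrb1*, a chymotrypsinogen, stood at 11.18 against at most 2.71 in the other SBR vehicle libraries. None of the 23 was called, and without library 7 the test called 6038 genes.

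Most listed genes of the extracellular matrix were higher in SBR livers. *Col1a1* (chromosome 11, 94936224 to 94953042 in GRCm38), which encodes the main chain of type I collagen, was at 3.45, 3.58, 3.52, 3.75 and 4.60 log2 TPM in the 5 sham libraries. In the 8 SBR libraries it ran from 6.52 to 7.60 with a median of 7.20. The groups lay far apart, with the highest sham library (replicate 5) about 2 log2 units under the lowest SBR library. The difference was 3.36 ± 0.23 (SE, 5 against 8 libraries; adjusted p = 1.04e-08) and 3.05 after centring. Its exact two-sided permutation p was 0.000777, the smallest that 8 against 5 libraries can give over 1287 splits. The same p was found for 136 of 142 genes without overlap that were examined singly, and the other 6 (*Socs3*, *Fbp1*, *Rarb*, *Thrb*, *Dio1* and *Hlf*) had exact permutation p-values of up to 0.00544.

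*Col3a1*, which encodes type III collagen, was at 4.45, 4.32, 4.30, 4.64 and 5.02 in sham and between 6.66 and 7.72 (median 7.45) in SBR, again without overlap. Its difference was 2.75 ± 0.20 (SE; adjusted p = 1.93e-08). Of 13 tested fibrillar and associated collagens, 12 rose and *Col5a3* (-0.12) was not called. The list's median difference was 1.80 (1.49 centred), against 0.25 (-0.06 centred) over all genes. *Col6a3*, a chain of the beaded-filament collagen VI, rose by 2.92, and *Col1a2*, the partner chain of *Col1a1*, by 2.44.

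Of 12 basement membrane genes, 11 rose and 1 fell under both scalings, with a median of 1.27 (0.96 centred). *Col4a1* and *Col4a2*, which encode the network collagen of basement membranes, rose by 1.86 and 1.65. *Lama5*, a laminin chain, rose by 1.81, and *Hspg2*, the heparan sulphate proteoglycan perlecan, by 1.14. *Col18a1* was the 1 member that was lower, at -0.27. Among 25 genes of matrix assembly and remodelling, 23 rose and none fell on the deposited values (median 1.35), with *Postn* (0.27) and *Fn1* (-0.16) not called. After centring, 23 were higher and 1 lower. *Mmp2*, a gelatinase, rose by 2.52, *Loxl1*, an enzyme that cross-links elastin, by 2.30, *Adamts2*, which trims procollagen, by 1.96, and *Timp2*, an inhibitor of matrix proteases, by 1.73.

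Most listed signals that act on stellate cells were also higher. *Pdgfb*, a mitogen for these cells, was at 1.87, 1.62, 1.94, 2.00 and 1.98 in sham and between 3.06 and 3.49 (median 3.24) in SBR. The 2 ranges were more than 1 log2 unit apart, and the difference was 1.38 ± 0.12 (SE; adjusted p = 6.05e-08). *Tgfb1*, the central fibrogenic cytokine, was at 3.31, 3.11, 3.23, 2.94 and 3.22 in sham and between 3.57 and 4.19 (median 4.00) in SBR. That difference was smaller, 0.79 ± 0.13 (SE; adjusted p = 6.97e-05) and 0.48 after centring, and the groups still did not overlap. *Ltbp1* (1.64), *Ltbp2* (1.94) and *Ltbp3* (1.79), of the latent TGF-β binding protein family, all rose. Of the 23 tested genes of TGF-β and PDGF signalling, 20 rose, none fell and the median was 1.13 (0.83 centred).

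Stellate cell and myofibroblast markers were less uniform. Of 18, 13 rose on the deposited values and none fell (median 0.61), against 37.4% and 4.47% of all genes. After centring, 10 were higher and 3 lower (median 0.30), against 20.4% and 28.8% of all genes. *Cygb*, a globin of stellate cells, rose by 1.93, the PDGF receptors *Pdgfrb* and *Pdgfra* by 1.84 and 1.73, and *Vim*, an intermediate filament gene, by 1.56. *Acta2*, which encodes the smooth muscle actin of myofibroblasts, was chosen after its values were seen. It was at 5.12, 4.95, 5.81, 6.11 and 4.85 in sham and between 4.63 and 6.20 (median 5.35) in SBR. These ranges overlapped almost fully, and the difference was 0.00 ± 0.30 (SE; adjusted p = 0.996).

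**Figure D2:**
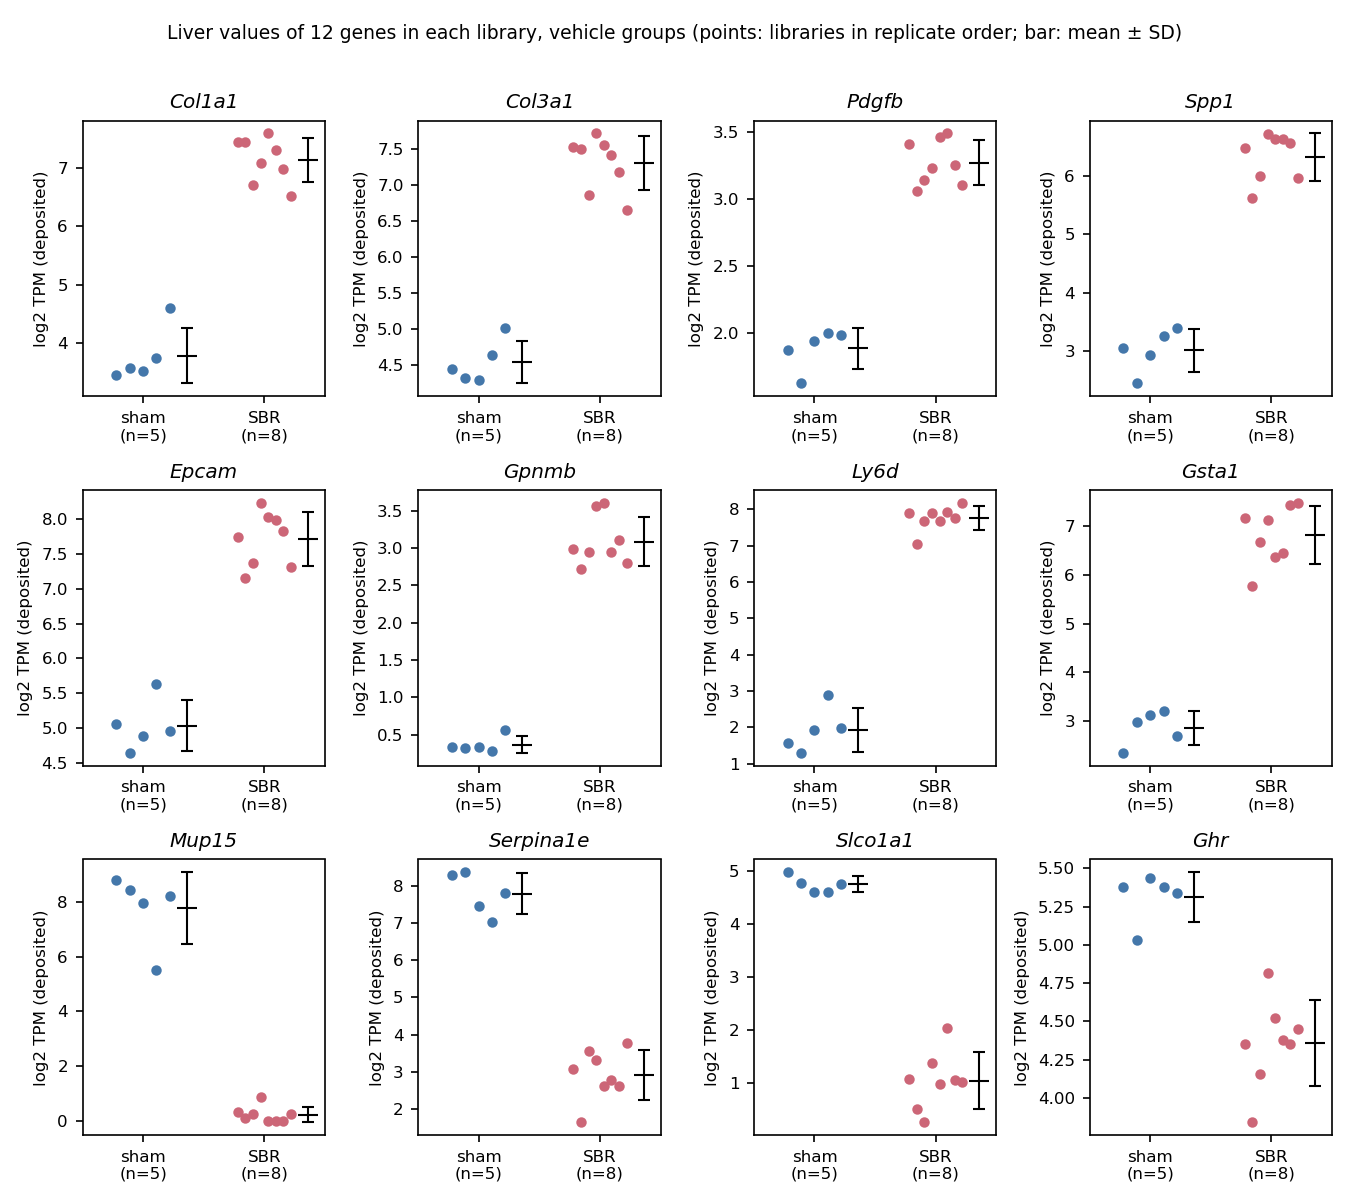
Deposited log2 TPM of 12 genes in each sham vehicle (5) and SBR vehicle (8) liver library, drawn in replicate order, with the group mean and SD beside the points. No gene shown has overlapping groups: 8 are higher in every SBR library and *Mup15*, *Serpina1e*, *Slco1a1* and *Ghr* are lower in every SBR library.

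Bile duct markers were the list with the highest median. All 19 tested cholangiocyte genes rose (median 1.84, 1.53 centred), 17 of them without overlap of the groups, and 17 were called after centring. *Spp1*, osteopontin, a matrix protein made by bile duct cells and macrophages, was at 3.04, 2.44, 2.92, 3.26 and 3.40 in sham and between 5.62 and 6.72 (median 6.51) in SBR. It rose by 3.31 ± 0.24 (SE; adjusted p = 1.52e-08), with every SBR library at least 2 log2 units above every sham library. *Epcam*, an adhesion molecule of biliary and progenitor cells, was at 5.05, 4.64, 4.89, 5.63 and 4.96 in sham and between 7.16 and 8.24 (median 7.79) in SBR, a rise of 2.68. *Cd24a*, a surface marker of the same cells, rose by 2.59, *Bicc1*, an RNA-binding protein of ducts, by 2.46, and *Krt7*, a keratin of bile ducts, by 1.65. Their groups did not overlap.

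Genes of the Notch and Hippo pathways, which guide bile duct formation, gave 11 higher of 14 with a median of 0.52, and 9 higher and 1 lower after centring (median 0.21). Over all genes, 37.4% were higher, and 20.4% were higher and 28.8% lower after centring. The Notch ligands *Jag1* and *Jag2* rose by 1.11 and 0.76, and *Tead1* and *Wwtr1*, a DNA-binding factor and its coactivator in the Hippo pathway, by 1.12 and 0.87. *H19*, an imprinted noncoding RNA of fetal liver, was between -0.17 and -0.01 in sham and between 1.63 and 4.17 in SBR, a rise of 2.80. It was the 1 of 3 tested genes of that list that was called. *H19* had a mean under 1 in sham and passed the filter through the resected groups, so its call follows in part from the filter.

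Of 22 tested Kupffer cell and macrophage genes, 15 rose and 1 fell (median 0.80), and 15 were higher and 4 lower after centring (median 0.49). *Gpnmb*, a glycoprotein of lipid-laden macrophages, was at 0.33, 0.32, 0.33, 0.28 and 0.56 in sham and between 2.72 and 3.61 (median 2.97) in SBR. It rose by 2.72 ± 0.20 (SE; adjusted p = 1.57e-08), and no SBR library came near the sham range. Of the 22, 2 (*Gpnmb* among them) had a mean under 1 in sham and passed the filter through the resected groups. A call for these follows in part from the filter. *Cd63*, a lysosomal membrane protein, rose by 2.58, *Cx3cr1*, the fractalkine receptor of monocyte-derived cells, by 2.13, and *Itgax*, the integrin CD11c, by 2.02. Not all members of the list rose. *Clec4f* (-0.41), *Marco* (-0.37), *Cd5l* (-0.29) and *Vsig4* (-0.18) were not called on the deposited values and, like *Timd4*, are named after their values were seen. *Timd4*, a receptor of resident macrophages, fell by 0.81 (adjusted p = 0.0051), with 7 of 8 SBR libraries below all sham libraries.

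Of 14 tested genes of other leukocytes, 8 rose and none fell (median 0.63), with 7 higher and 1 lower after centring (median 0.33), and the antigen-presenting genes of MHC class II led the list. *H2-Eb1* rose by 1.88, *H2-Ab1* by 1.77, *H2-Aa* by 1.72 and *Cd74*, the invariant chain, by 1.66, each without overlap. The T cell genes *Cd3e* (0.24), *Cd4* (0.02) and *Cd8a* (0.29) were not called. *H2-Q1*, a class I-like gene, was among the genes with the smallest p and rose by 1.66. Endothelial genes stood near the background, with 5 of 17 higher and none lower (median 0.26), against 37.4% and 4.47% of all genes. Without SBR vehicle library 2, 10 of 17 were higher. After centring, 4 were higher and 7 lower (median -0.05), against 20.4% and 28.8% of all genes. *Cd34* (1.35), a vascular and progenitor marker, and *Lyve1* (1.09), a sinusoidal hyaluronan receptor, rose. *Cd34* had a mean of 0.84 in sham and passed the filter through the resected groups. *Stab1*, a scavenger receptor of sinusoids, rose by 0.46.

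Most listed inflammatory and interferon genes rose. *Tnf*, an inflammatory cytokine, was at 0.75, 0.57, 0.89, 1.11 and 0.80 in sham and between 1.58 and 2.75 (median 1.96) in SBR, without overlap. Its rise was 1.17 ± 0.19 (SE; adjusted p = 9.77e-05). Of 16 genes of the cytokine and NF-κB list, 13 rose (median 1.11), and 12 were higher and 1 lower after centring (median 0.80). *Ccl24* (-0.61) was the 1 member called lower, and no member was called lower without SBR vehicle library 2 or without library 7. The monocyte attractant *Ccl2* rose by 1.72, *Nfkb2*, a subunit of the transcription factor NF-κB, by 1.24, *Tlr2*, a receptor for bacterial lipoproteins, by 1.23, and the adhesion gene *Icam1* by 1.20. *Tnf* and *Ccl2* had means of 0.82 and 0.30 in sham and passed the filter through the resected groups. Their calls follow in part from the filter.

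Of 22 interferon response genes, 20 rose and none fell, with a median of 0.74 (0.44 centred, 15 higher). *Oas1a*, a sensor of double-stranded RNA, was at 3.67, 3.26, 3.29, 3.29 and 3.48 in sham and between 4.44 and 5.16 (median 4.82) in SBR, a rise of 1.37. *Isg15*, a ubiquitin-like modifier, was at 4.53, 4.02, 4.51, 4.59 and 4.62 in sham and between 5.17 and 6.35 (median 5.45) in SBR, a rise of 1.14. *Oasl2* and *Usp18*, an OAS-like gene and the protease that removes ISG15, rose by 1.29 and 1.21. No sham library reached any SBR library for these genes. *Ifi27l2b*, an interferon-inducible gene outside the list, rose by 2.68.

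The 250 bases before the start sites of the listed interferon response genes were searched on both strands for GAAA, any 2 bases and a second GAAA. This is the core of the element that interferon-activated factors bind. The windows are RefSeq's, in GRCm38.p6. Of 23 windows for 19 genes of the list, 12 held it (52.2%), against 2.98% of 32851 windows of all genes. A match is a description of the sequence and not a measured binding site. The genes were listed as interferon response genes, so the share describes the list and not the change in these livers. The windows of *Isg15* (chr4:156200819-156201068, minus strand, 3 overlapping matches) and *Oas1a* (chr5:120907526-120907775, minus strand, 2 overlapping matches) are shown 5′ to 3′ with the matches in capitals.
Isg15: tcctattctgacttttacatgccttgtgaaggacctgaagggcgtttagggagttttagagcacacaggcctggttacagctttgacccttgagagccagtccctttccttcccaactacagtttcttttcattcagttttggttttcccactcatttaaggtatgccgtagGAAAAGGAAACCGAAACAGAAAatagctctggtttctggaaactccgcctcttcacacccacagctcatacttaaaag
Oas1a: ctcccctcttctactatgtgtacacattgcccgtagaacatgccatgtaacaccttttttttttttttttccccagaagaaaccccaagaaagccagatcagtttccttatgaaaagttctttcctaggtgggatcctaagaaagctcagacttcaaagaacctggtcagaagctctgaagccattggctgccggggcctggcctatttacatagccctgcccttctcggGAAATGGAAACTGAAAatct

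The acute phase list had 5 of 23 genes higher and 5 lower (median 0.09), against 37.4% and 4.47% of all genes, 7 higher and 6 lower without SBR vehicle library 2 (median 0.18), and 3 higher and 10 lower after centring (median -0.21). *Lcn2*, an iron-scavenging protein that rises in injured liver, was between 0.52 and 2.66 in sham and between 3.38 and 5.78 in SBR, a rise of 3.17 (adjusted p = 4.83e-06). *Il1rn*, the interleukin-1 receptor antagonist, rose by 1.52, but its mean in sham was 0.69 and it passed the filter through the resected groups. *Saa4*, a constitutive serum amyloid, fell by 1.17, and *Crp*, C-reactive protein, fell by 0.75. Complement and coagulation genes, made mostly by hepatocytes, gave 16 lower and none higher of 31 (median -0.34), and 30 lower after centring (median -0.65). Over all genes, 4.47% were lower and 37.4% higher, and 28.8% were lower after centring. The terminal complement genes *C8a* (-1.38), *C8b* (-1.30) and *C9* (-1.02) fell without overlap, and coagulation factor gene *F7* fell by 0.66.

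Major urinary protein genes showed the largest falls of the comparison. These genes encode lipocalins that male mouse liver secretes and that carry pheromones into urine. All 9 tested members fell without overlap, with a median of -5.01 (-5.32 centred), with 9 of 21 listed members analysed here. Of the 9, 6 had a mean under 1 in SBR and passed the filter through other liver groups. Over all genes, 320 had a mean under 1 in sham and 32 in SBR. Since several lie at their lowest value in SBR, the size depends on the pseudocount, and the median was -3.06 with 5 and -7.84 with 0.1. *Mup15* (chromosome 4, 61435790 to 61439743) was at 8.81, 8.42, 7.95, 5.51 and 8.21 in sham. In SBR it lay between 0.00 and 0.85 (median 0.18), and 3 libraries shared its lowest value. The difference was -7.56 ± 0.44 (SE; adjusted p = 1.64e-09). *Mup11* was at 5.79, 5.58, 5.25, 4.61 and 5.39 in sham and between -0.34 and 0.12 in SBR, with a difference of -5.53 and the smallest adjusted p of all genes, 3.58e-12. *Mup3* was at 7.77, 7.63, 7.87, 7.63 and 7.72 in sham and between 3.41 and 4.89 in SBR, a difference of -3.60.

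*Mup7* (-6.79), *Mup14* (-5.32), *Mup17* (-5.01) and *Mup21* (-3.83) complete the members with the smallest p. Sham replicate 4 was the lowest of its group for *Mup15* and *Mup17* and still far above every SBR library. The study counted uniquely aligned reads, and *Mup* genes are near copies of each other, so how a fall is shared out between members is uncertain. The copies are visible in their promoters. The 250-base RefSeq windows (GRCm38.p6) of *Mup15* (chr4:61439705-61439954), *Mup17* (chr4:61595833-61596082) and *Mup3* (chr4:62087318-62087567), all on the minus strand, are shown 5′ to 3′ with TATATAA, which resembles a common core promoter element, in capitals.
Mup15: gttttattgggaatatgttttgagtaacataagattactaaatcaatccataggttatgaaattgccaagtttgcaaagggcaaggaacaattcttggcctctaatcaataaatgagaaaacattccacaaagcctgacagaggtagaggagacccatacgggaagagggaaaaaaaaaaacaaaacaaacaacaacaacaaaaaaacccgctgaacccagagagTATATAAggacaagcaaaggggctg
Mup17: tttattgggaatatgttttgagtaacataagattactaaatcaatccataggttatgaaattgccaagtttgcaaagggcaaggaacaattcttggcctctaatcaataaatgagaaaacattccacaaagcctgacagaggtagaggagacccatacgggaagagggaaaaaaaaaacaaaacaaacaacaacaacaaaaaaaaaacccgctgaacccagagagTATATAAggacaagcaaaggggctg
Mup3: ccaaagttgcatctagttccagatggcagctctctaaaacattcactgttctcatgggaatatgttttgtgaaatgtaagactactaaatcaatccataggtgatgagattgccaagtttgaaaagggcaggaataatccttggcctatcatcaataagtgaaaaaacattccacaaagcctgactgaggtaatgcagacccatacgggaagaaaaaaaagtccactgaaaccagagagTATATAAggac
*Mup15* and *Mup17* share an unbroken run of 178 bases, and *Mup3* and *Mup15* one of 22. TATATAA, searched on both strands, was in 5 of 8 windows for *Mup* genes and in 3.04% of 32851 windows of all genes.

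*Mup* genes are among the genes with higher expression in male than in female liver, and other male-biased genes also fell. Of 17 tested, 16 were lower and 13 did not overlap (median -1.51, -1.82 centred), and *Gstp1* (-0.39) was not called. Of the 17, 3 (*Susd4* and *Elovl3* among them) had a mean under 1 in SBR and passed the filter through other liver groups. A call for these follows in part from the filter. *Slco1a1*, a sinusoidal transporter of organic anions, was at 4.98, 4.78, 4.61, 4.61 and 4.76 in sham and between 0.25 and 2.04 (median 1.04) in SBR. It fell by 3.71 (adjusted p = 1.93e-08), and its lowest sham library lay 2.5 log2 units or more above every SBR library. *Elovl3*, a fatty acid elongase, named after its values were seen, fell by 3.71 too. *Susd4*, a regulator of complement, fell by 2.74, *Cyp2u1*, a fatty acid hydroxylase, by 2.53, and *Cyp7b1*, an oxysterol hydroxylase, by 2.39. *Serpina1e*, a gene of the α1-antitrypsin family, was at 8.29, 8.37, 7.45, 7.04 and 7.81 in sham and between 1.64 and 3.77 in SBR, a fall of 4.87.

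Female-biased genes went the other way. Of 18 listed, 8 were analysed here, of which 6 rose and none fell (median 1.19, 0.89 centred), and 4 did not overlap. Of these 8, 2 (*Cyp2b9* and *Cux2*) had a mean under 1 in sham and passed the filter through the resected groups, so a call for them follows in part from the filter. *Cyp2b9*, a female-type cytochrome P450, was between -0.55 and 0.71 in sham and between 1.48 and 5.11 in SBR, a rise of 3.27 with a wide spread (SE 0.60; adjusted p = 0.000254). *Cyp2a4*, a steroid hydroxylase, rose by 2.15, and *Cyp3a16* and *Cyp3a44* by 1.28 and 1.23. These P450 genes have near copies among which reads may be split.

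Genes of the growth hormone pathway itself gave 11 higher and 4 lower of 20 on the deposited values, and 4 higher and 8 lower after centring, when 20.4% of all genes were higher and 28.8% lower (37.4% and 4.47% on the deposited values). *Ghr*, the growth hormone receptor, was at 5.38, 5.03, 5.44, 5.38 and 5.34 in sham and between 3.84 and 4.82 (median 4.36) in SBR, a fall of 0.95 (adjusted p = 9.68e-06). *Igfals*, which stabilises circulating IGF1, fell by 0.93, while *Igf1* (-0.33) was not called. The feedback inhibitors *Socs2* and *Socs3* rose by 1.26 and 0.95.

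**Figure D3:**
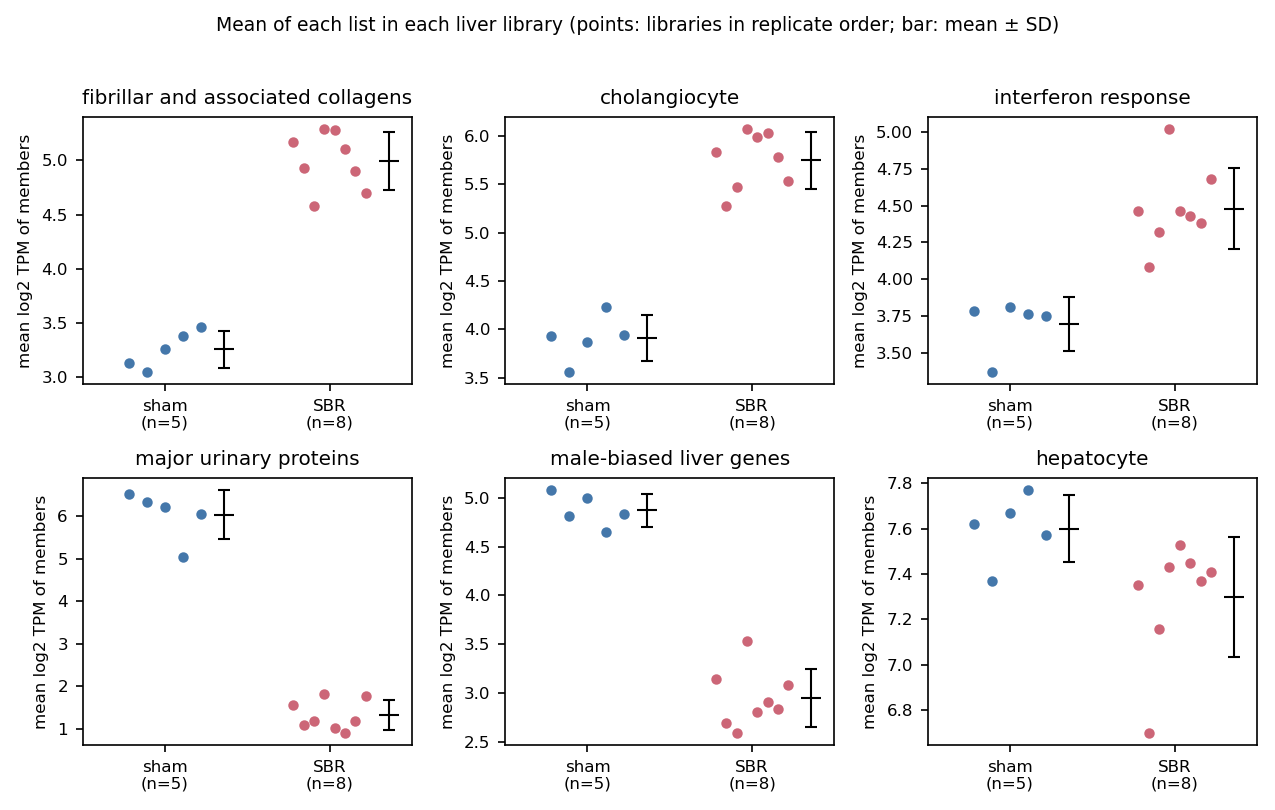
Mean log2 TPM over the tested members of 6 gene lists in each liver library of the vehicle groups, in replicate order, with the group mean and SD. Collagen means ran from 3.05 to 3.46 in sham and from 4.58 to 5.29 in SBR, and *Mup* means from 5.04 to 6.52 and from 0.90 to 1.82, whereas hepatocyte means overlapped (7.37 to 7.77 and 6.70 to 7.53).

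Common hepatocyte genes changed far less than the male-biased ones. Of 16, 5 fell and none rose (median -0.33), against 4.47% and 37.4% of all genes. After centring, 14 were lower (median -0.63), against 28.8% of all genes. Without SBR vehicle library 2, 2 were higher and 6 lower (median -0.20). *Hpd*, an enzyme of tyrosine breakdown, fell by 0.90, and *Cebpa*, a hepatocyte transcription factor, by 0.48. *Cps1*, the entry enzyme of the urea cycle, fell by 0.42 (adjusted p = 0.0233), but its adjusted p was 0.0651, 0.0618 and 0.0593 without sham replicates 1, 4 and 5. Nor was *Cps1* called in an unmoderated two-sample test (adjusted p = 0.0506). *Alb*, the albumin gene, had a difference of -0.24 and was not called. The level of SBR vehicle library 2 was the lowest for this list, with a mean of 6.70.

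Bile acid synthesis fell in part. Of 15 genes, 7 fell and none rose (median -0.29), against 4.47% and 37.4% of all genes. After centring, 11 were lower (median -0.59), against 28.8% of all genes. Without SBR vehicle library 2, 1 was higher and 8 lower. *Cyp7a1*, the rate-limiting enzyme of the classical pathway, was at 4.14, 3.38, 3.68, 3.47 and 4.01 in sham and between 2.78 and 4.17 (median 4.07) in SBR. The ranges overlapped, and the difference was 0.01 ± 0.25 (SE; adjusted p = 0.978), -0.30 after centring. *Cyp8b1*, the sterol hydroxylase that sets the share of cholic acid, was at 5.64, 4.70, 4.91, 5.13 and 5.34 in sham and between 3.18 and 4.85 (median 4.22) in SBR. It fell by 0.96 (adjusted p = 0.00951), with 6 of 8 SBR libraries below all sham libraries. *Slc27a5* and *Baat*, which activate and conjugate bile acids, fell by 0.63 and 0.51.

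Transporters of bile acids, other organic anions and sterols gave 6 higher and 6 lower of 16 (median -0.02), where 37.4% of all genes were higher and 4.47% lower. After centring, 3 were higher and 9 lower (median -0.33). *Slc10a1*, the main uptake carrier for bile salts, fell by 1.00, and *Slco1b2*, another uptake carrier, by 0.66. *Abcb11*, the canalicular bile salt pump, differed by -0.18 (adjusted p = 0.26), and was lower by 0.49 after centring (adjusted p = 3.1e-05). *Abcc4*, an efflux pump of the sinusoidal membrane, rose by 1.96, *Abcb1a*, a canalicular pump for drugs, by 1.47, and *Slc51b*, a subunit of a basolateral exporter, by 0.92. *Abcg5* (-0.64) and *Abcg8* (-0.63), the sterol exporter of the canaliculus, fell.

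Among 15 genes of xenobiotic and bile acid sensing, 4 rose and 5 fell (median -0.05), against 37.4% and 4.47% of all genes. After centring, 2 were higher and 8 lower (median -0.36). *Cyp2c55* and *Cyp3a11*, P450 genes induced through the receptors CAR and PXR, rose by 1.84 and 1.61. *Cyp2c29* and *Cyp1a2*, 2 other P450 genes, fell by 1.00 and 0.58. Carboxylesterases, which hydrolyse esters and lipids, gave 7 lower and 2 higher of 13, 4 higher without SBR vehicle library 2, and 9 lower and 1 higher after centring (median -0.35, -0.66 centred). Over all genes, 4.47% were lower and 37.4% higher, and 28.8% and 20.4% after centring. *Ces3b* (-1.64), *Ces3a* (-1.27) and *Ces1f* (-0.80) fell without overlap, and *Ces2a* by 0.67. Paralogs in these families are similar in sequence, which makes single members uncertain.

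In fatty acid metabolism, single genes stood out from lists whose medians lay near that of all genes (0.25, -0.06 centred). Of 29 genes of fatty acid oxidation and PPARα targets, 8 rose and none fell (median 0.23), against 37.4% and 4.47% of all genes. After centring, 7 were higher and 10 lower (median -0.08), against 20.4% and 28.8% of all genes. Without SBR vehicle library 7, 8 were higher and 1 lower, and without library 2, 12 were higher. *Fgf21*, a fasting hormone of the liver, was at 1.01, 1.44, 1.76, 1.68 and 1.05 in sham and between 2.95 and 4.94 (median 4.06) in SBR. It rose by 2.64 ± 0.27 (SE; adjusted p = 5.12e-07) without overlap. *Acot2*, a mitochondrial thioesterase, rose by 2.07, *Cd36*, a fatty acid importer, by 1.18, and *Plin2*, a coat protein of lipid droplets, by 1.08. *Cidec*, which enlarges lipid droplets, rose by 2.74. *Cfd*, adipsin, and *Car3*, a carbonic anhydrase, which are listed with *Cidec* as adipocyte genes, fell by 2.14 and 1.88.

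Fatty acid and triglyceride synthesis gave 5 higher and 3 lower of 21 (median 0.26), 9 higher without SBR vehicle library 2, and 2 higher and 5 lower after centring (median -0.05). Over all genes, 37.4% were higher and 4.47% lower, and 20.4% and 28.8% after centring. *Scd2*, a desaturase, rose by 2.51, and *Elovl5*, an elongase, by 0.91. *Mlxipl*, the sugar-responsive factor ChREBP, fell by 0.75, and *Dgat2*, the last enzyme of triglyceride synthesis, by 0.69. Cholesterol synthesis gave 7 higher and none lower of 25 (median 0.36), 15 higher without SBR vehicle library 2, and 2 higher and 3 lower after centring (median 0.05). The 7 of 25 lay below the 37.4% of all genes that were higher, and both centred shares lay below those of all genes. *Hmgcs1*, an early enzyme of the pathway, rose by 1.06, and *Srebf2*, its transcription factor, by 0.67.

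Targets of the liver X receptor and genes of HDL metabolism gave 4 higher and 4 lower of 22 (median -0.03), against 37.4% and 4.47% of all genes. After centring, 4 were higher and 12 lower (median -0.34). *Apoa4*, an apolipoprotein that rises in fatty liver, was at 9.20, 8.08, 8.17, 8.14 and 8.88 in sham and between 10.51 and 11.78 (median 11.10) in SBR, a rise of 2.62. *Lpl*, lipoprotein lipase, rose by 1.80, and *Abcg1*, a sterol exporter of macrophages, by 0.86. *Nr1h2*, the receptor LXRβ, rose by 0.45, whereas *Nr1h3* (-0.05), LXRα, and *Abca1* (-0.07) and *Apoa1* (-0.01), which form HDL, were not called.

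Genes of amino acid and sugar metabolism were lower in part. Of 21 genes of the urea cycle and amino acid catabolism, 13 fell and 1 rose (median -0.44), against 4.47% and 37.4% of all genes. After centring, 20 were lower (median -0.75), against 28.8% of all genes. *Hal*, the histidine-degrading enzyme, was at 4.56, 3.99, 5.16, 5.05 and 4.55 in sham and between 2.65 and 3.30 in SBR, a fall of 1.60. *Sds*, serine dehydratase, fell by 1.37, *Gls2*, the liver glutaminase, by 0.84, and *Otc*, a urea cycle enzyme, by 0.71. Of 18 genes of pericentral or periportal hepatocytes, 2 rose and 9 fell (median -0.40), with 1 higher and 13 lower after centring (median -0.71), and the periportal P450 gene *Cyp2f2* fell by 1.11. One-carbon and sulphur amino acid genes gave 4 higher and 5 lower of 17 (median -0.19), against 37.4% and 4.47% of all genes, and 6 higher and 4 lower without SBR vehicle library 2 (median -0.12). After centring, 4 were higher and 11 lower (median -0.50), against 20.4% and 28.8% of all genes. Among the 4 that rose were *Psat1* (2.10) and *Phgdh* (1.02), enzymes of serine synthesis, and *Mthfd2* (1.37), a mitochondrial folate enzyme. Glucose and glycogen genes gave 6 lower and none higher of 17 (median -0.42), 15 lower after centring (median -0.72), and 1 higher and 6 lower without SBR vehicle library 2. *Pck1*, the gateway enzyme of gluconeogenesis, fell by 0.76, but was not called in an unmoderated two-sample test (adjusted p = 0.0549). *Gys2*, the liver glycogen synthase, fell by 0.60, but was not called with a replicate block (adjusted p = 0.0619). *Ppp1r3b*, a glycogen-targeting subunit, fell by 0.68, and *Fbp1*, another gluconeogenic enzyme, by 0.42.

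Thyroid hormone genes gave 3 higher and 3 lower of 15 (median 0.01), against 37.4% and 4.47% of all genes, and 6 higher without SBR vehicle library 2. After centring, 2 were higher and 8 lower (median -0.30), against 20.4% and 28.8% of all genes. *Thrb*, the main thyroid hormone receptor of hepatocytes, was at 4.05, 4.00, 4.34, 4.35 and 4.15 in sham and between 3.30 and 4.00 (median 3.77) in SBR. The highest SBR library lay only just below the lowest sham library. It fell by 0.48 ± 0.11 (SE; adjusted p = 0.00194). *Dio1*, a deiodinase induced by the hormone, fell by 0.67, whereas *Thra*, the other receptor, rose by 0.52 and *Hr*, a corepressor of the receptors, by 1.60.

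Of 22 antioxidant genes and targets of the factor NRF2, 15 rose and 1 fell (median 0.68), and 13 were higher and 6 lower after centring (median 0.37). *Gsta1*, a glutathione transferase, was at 2.35, 2.98, 3.12, 3.20 and 2.69 in sham and between 5.78 and 7.48 (median 6.90) in SBR, a rise of 3.94 ± 0.39 (SE; adjusted p = 3.5e-07). *Gstm3*, of another transferase class, rose by 3.82, *Srxn1*, sulfiredoxin, by 2.57, and *Nqo1*, a quinone reductase, by 1.74. *Cat*, catalase, was the 1 member that fell, by 0.44 (adjusted p = 0.00698). The superoxide dismutases *Sod1* (-0.17, adjusted p = 0.215) and *Sod2* (-0.21, adjusted p = 0.161) were not called, and were lower after centring by 0.48 and 0.51.

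Of 17 immediate early genes, 13 rose and none fell (median 1.23), and 11 were higher and 1 lower after centring (median 0.93). *Atf3*, a stress-induced transcription factor, rose by 2.87, *Myc*, a growth regulator, by 2.52, and *Jun* and *Klf6*, which encode 2 other early factors, by 1.86 and 1.76. Of 20 genes of the unfolded protein and amino acid stress response, 6 rose and 1 fell (median -0.04), below the 37.4% of all genes that were higher, and 4 were higher and 9 lower after centring (median -0.34), with *Trib3* (1.10), *Ddit3* (0.75) and *Atf4* (0.57) among those that rose. Cell cycle genes gave 20 higher and none lower of 21 (median 1.35, 1.04 centred), and *Ccne1* (0.41) was not called. *Ccnd1*, cyclin D1, was between 3.45 and 4.56 in sham and between 6.31 and 7.13 in SBR, a rise of 2.64. *Mki67*, a proliferation marker, rose by 2.03, *Mcm6*, a replication helicase, by 1.72, and *Aurkb*, a mitotic kinase, by 1.41.

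The genes with the smallest p-values include several outside these lists. *Ly6d* (chromosome 15, 74762056 to 74763620), a surface protein, was at 1.56, 1.29, 1.93, 2.88 and 1.97 in sham and between 7.05 and 8.19 (median 7.83) in SBR. No other gene named here rose as far, with a difference of 5.84 ± 0.34 (SE; adjusted p = 1.64e-09), and its groups were 4 log2 units apart or more. *Scara3*, a scavenger receptor, rose by 3.16, *Ddr1*, a collagen receptor, by 2.61, *Ccdc120*, a coiled-coil protein gene, by 2.48, *Spint1*, a protease inhibitor of epithelia, by 2.25, and *Ttc39a* by 2.20. *Uap1l1* and *Mtcl1*, a microtubule-linked gene, rose by 1.75 and 1.61. *Mtcl1* had a mean of 0.85 in sham and passed the filter through the resected groups.

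Of 14 iron genes, 6 rose and 1 fell (median 0.33), near the 37.4% of all genes that were higher, and 4 were higher and 3 lower after centring (median 0.03). *Id1*, a target of bone morphogenetic protein signalling, rose by 2.37. *Atoh8* (0.78), *Ftl1* (0.55), a ferritin chain, and *Hjv* (0.50), a coreceptor of that pathway, also rose. Vitamin A genes gave 5 higher and 2 lower of 15 (median 0.08), near the 37.4% of all genes that were higher, and 4 higher and 6 lower after centring (median -0.22), with *Bco1*, which cleaves carotene, up by 0.88, and *Rarb*, a retinoic acid receptor, by 0.62, and *Rdh7*, a retinol dehydrogenase, down by 0.52. Circadian genes gave 3 lower and none higher of 18 (median -0.15), against 4.47% and 37.4% of all genes, 10 lower after centring (median -0.45), against 28.8%, and 3 lower and 1 higher without SBR vehicle library 2. *Hlf*, a transcription factor under clock control, fell by 0.55. Of 13 mitochondrially encoded genes, 8 fell and none rose (median -0.47), against 4.47% and 37.4% of all genes. After centring all 13 were lower (median -0.77), against 28.8% of all genes. This is a measured shift whose part in the other results was not tested.

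**Figure D4:**
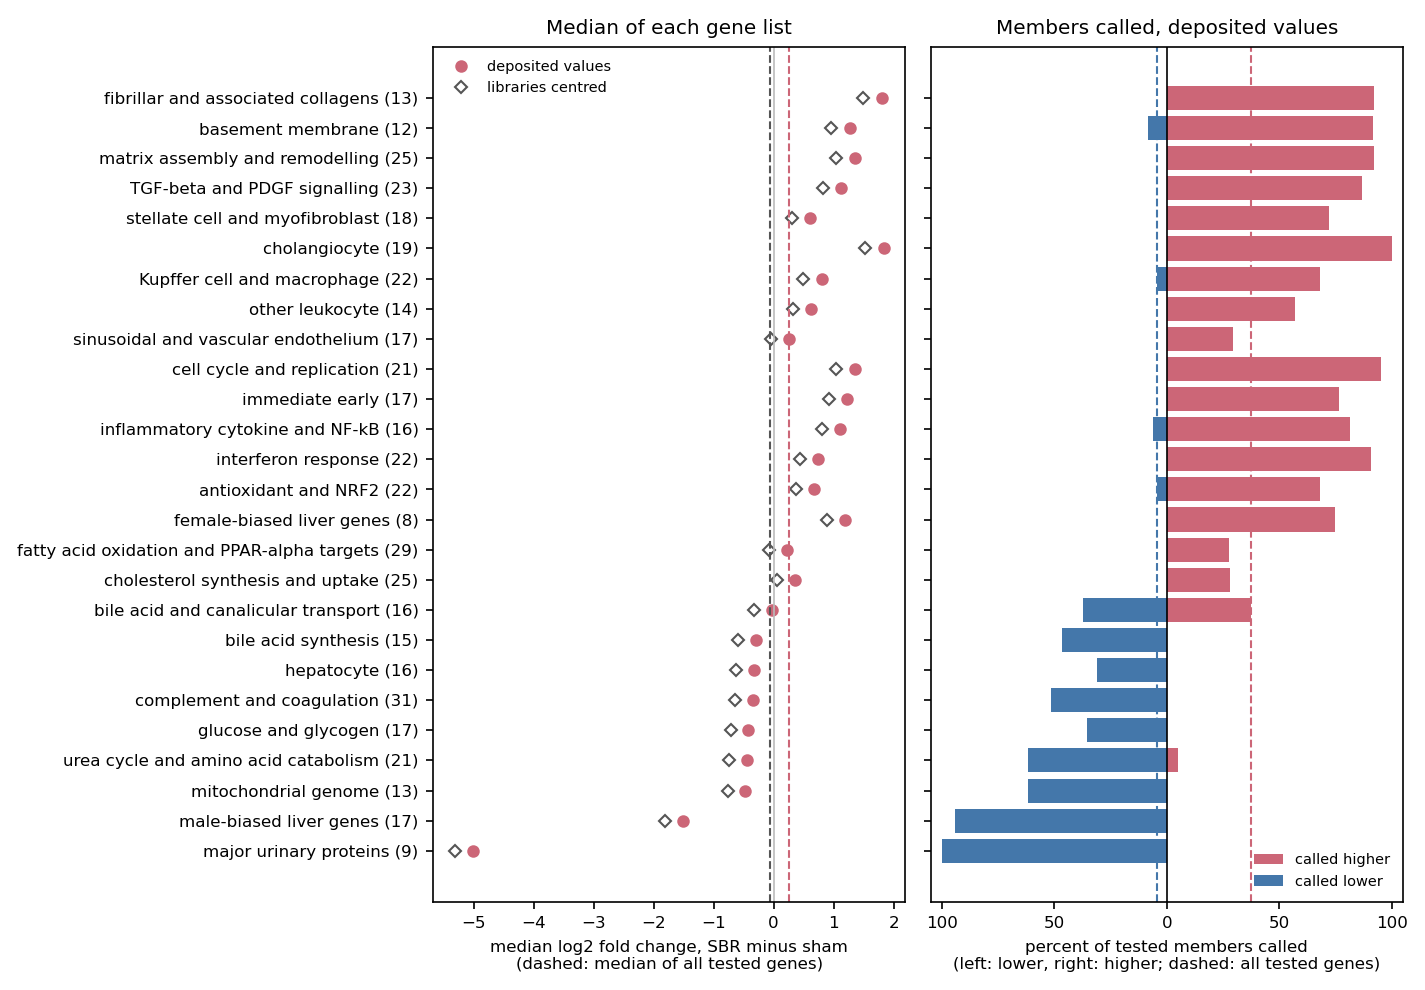
Median log2 fold change (SBR minus sham) of 26 gene lists with the deposited values and with centred libraries, and the percent of tested members called higher or lower with the deposited values. Numbers in brackets are tested members and dashed lines show all tested genes (37.4% higher, 4.47% lower). Matrix, cholangiocyte and cell cycle lists lie far right of the dashed lines, and *Mup* and male-biased genes far left.

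Markers of other tissues were examined beside these results. The mean of the 23 acinar genes lay between 2.30 and 2.36 in sham and between 2.26 and 6.50 in SBR, the last in library 7 alone. Without library 7, the 3 acinar genes *Ctrb1*, *Cela3b* and *Cel* differed by 0.05, 0.01 and 0.12. Matrix, cholangiocyte and *Mup* counts were the same without library 7, at 12 of 13 collagens, 19 of 19 cholangiocyte genes and 9 of 9 *Mup* genes. Of 12 gut epithelial genes, 3 rose (*Vil1*, *Lyz1* and *Apoa4*), against 37.4% of all genes, and 8 were lower after centring, against 28.8%, while the defining genes *Sis* (0.00), *Cdx1* (0.00) and *Muc2* (0.06) were not called on the deposited values. Of 5 erythroid genes, *Alas2* fell by 1.00 and the 4 globins were not called.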

How the data were processed

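RNA from 18 liver samples was sequenced by the authors. Per the labels and the study's methods, reads were aligned to GRCm38 with STAR 2.7.9a and uniquely aligned, unambiguous reads were counted with Subread's featureCounts 2.0.3. The authors converted counts to TPM, took log2 and corrected for batch, and the deposited values are these log2 TPM. The header of the table is shifted by 1 field against its values, and columns were assigned by sample title. Depth per sample is unknown, so no interval for counting error could be given.

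Genes with a mean of at least 1 over the 18 liver libraries were kept (15901 of 15958). The 3 liver groups were fitted together with limma 3.58.1 in R 4.3.3, with a variance trend, and p-values were adjusted by Benjamini-Hochberg over all genes tested. Exact two-sided permutation tests used Python 3.11.15 and scipy 1.17.1. Tested on simulated data for this comparison over 15901 genes, the fit recovered 46% of changes of 0.5 log2 units, 91% of changes of 1 and 100% of changes of 2, with 9 false calls. The simulated noise was independent between genes, few genes were changed and no shift of whole libraries was put in. The false calls there are therefore no estimate of those among the real calls. Gene coordinates come from GENCODE M21, matched by name for 15578 genes, and promoter windows from RefSeq (GRCm38.p6).

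Genes were named by a rule: in each direction, the 12 called genes of smallest p among those whose groups did not overlap, the genes the study names for liver, at most 4 members of each list by smallest p, and markers of other tissues. Members named beyond it, those that were not called among them, were chosen after their values were seen, and a few genes that the rule names are not reported here. The gene lists and the comparison were chosen with earlier results of these data known. Alternatives were library centring, quantile normalization, other filters, pseudocounts of 5 and 0.1, library weights, other fits, a replicate block and leaving out each library.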

Additional observations from a re-analysis of the deposited data

Results flagged for a closer look

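Single libraries stood apart from the rest of their group in 31 of 345 groups of values examined, by the gap to the nearest library over the group's range. Chance gives about 1 such case in 20 groups. SBR replicate 2 accounted for 9 of them, each as the lowest library. It was at 7.05 for *Ly6d* (next 7.68), 3.26 for *Icam1* (3.81), 3.38 for *Lcn2* (4.88), 2.80 for *Crp* (3.32) and 3.84 for *Baat* (4.45). Among lipid and thyroid genes it was at 6.18 for *Srebf2* (6.68), 6.35 for *Hmgcs1* (7.55), 2.35 for *Lpl* (3.12) and 4.70 for *Dio1* (5.56).

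SBR replicate 7 was the highest for the acinar genes *Ctrb1* at 11.18 (next 2.71), *Cela3b* at 6.95 (1.84) and *Cel* at 7.55 (2.28). SBR replicate 4 was the highest for *Susd4* at 0.94 (0.50), *Mup15* at 0.85 (0.30) and *Usp18* at 5.03 (4.27). SBR replicate 6 was the highest for *Tnf* at 2.75 (2.07), and SBR replicate 5 for *Cx3cr1* at 3.97 (3.47).

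Among sham libraries, replicate 4 was the lowest for *Mup15* at 5.51 (next 7.95) and *Mup17* at 3.28 (5.14), and the highest for *Krt7* at 2.34 (2.04) and *Acot2* at 3.77 (3.19). Replicate 2 was the lowest for *Usp18* at 2.62 (3.00), *Isg15* at 4.02 (4.51), *F7* at 3.81 (4.25), *Ghr* at 5.03 (5.34) and *Cyp2f2* at 5.76 (5.88). Replicate 5 was the highest for *Col1a1* at 4.60 (3.75), *Gpnmb* at 0.56 (0.33), *Mki67* at 2.55 (2.44) and *Cel* at 1.98 (1.94). Replicate 1 was the highest for *Susd4* at 3.59 (3.12).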

How the results depend on the processing

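The number of called genes (6663, with 5953 higher and 710 lower) moved by more than 1.5 times with library weights, a stricter filter and a fold threshold, and its split into higher and lower moved with the scaling. Centring gave 3245 higher and 4580 lower, and quantile normalization 3572 and 4263. A minimum mean of 3 gave 4180 called with 3661 higher, since fewer genes were tested, and library weights gave 10462 called with 9563 higher. A threshold of unadjusted p under 0.05 with at least a 2-fold change gave 1204, of which 1074 were higher and 130 lower. Leaving out 1 library gave 5399 (without sham replicate 2) to 9010 (without SBR replicate 2) called genes, 4593 to 8314 higher and 548 to 813 lower. Leaving out SBR replicates 2 and 7 together, chosen after seeing the data, gave 8418. Apart from what follows from the construction of an alternative, the cause was not tested.

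The difference of *Acta2*, which was not called, changed sign with library weights (0.20), without SBR replicates 2 and 7 (0.14) and in leave-one-out fits (-0.13 to 0.18). That of *Cyp7a1*, not called either, changed sign with centring (-0.30), quantile normalization (-0.29), library weights (-0.09) and in leave-one-out fits (-0.08 to 0.15). Of 165 called genes examined singly and reported here, 164 passed in every leave-one-out fit, *Cps1* being the exception. Alternatives that dropped genes did not hold all of them. With a minimum mean of 3, 131 of the 173 genes examined singly, called or not, were tested.

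Same-numbered sham and SBR libraries did not deviate together (correlations of -0.01, 0.16, 0.04, -0.12 and 0.03 for numbers 1 to 5), so they share only a number. With a replicate block, 5587 genes were called (4872 higher, 715 lower), and *Cps1* (-0.44, adjusted p = 0.0556) and *Gys2* (-0.53, adjusted p = 0.0619) were not called by limma.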
